A study of Mus musculus with 12 samples.

Results

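The RNA of 10 genes of the NF-κB system was followed in mouse follicular (FO) B cells. They were the 5 genes of the NF-κB subunits (Nfkb1, Nfkb2, Rel, Rela and Relb), the 4 genes of the IκB family with the symbols Nfkbia, Nfkbib, Nfkbie and Nfkbiz, and Tnfaip3. The genes were chosen by symbol among the 22561 genes of the count table. All 10 passed the filter on low counts, which left 9431 genes for testing.

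The FO B cells came from C57BL6 mice aged 10 weeks and were sorted from the spleen by flow cytometry. There were 4 groups of 3 samples. One group was unstimulated, and the others were stimulated for 12 h with IFNα, a type I interferon, with CpG, a DNA ligand of Toll-like receptor 9 (TLR9), or with CpG plus IFNα (CpG + IFNα). The study asked what marks the expression of FO B cells given both stimuli, which by the series' design text drive them towards plasma cells. The labels name no mutation or transgene. The sources used here do not say if unstimulated cells also spent the 12 h in culture, so the effects of a stimulus and of culture cannot be told apart in comparisons with unstimulated cells. The labels do not say that the samples of a group came from separate mice or cultures, so p-values measure the spread between these samples, which may be technical.

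RNA was counted by BRB-seq, in which RNA is primed at its poly(A) tail and each molecule carries a unique molecular identifier (UMI). Totals ran from 922450 UMI counts in the shallowest unstimulated sample to 2923865 in the deepest CpG + IFNα sample. Levels below are given as CPM, counts scaled to a common library size with TMM factors. They are a share of all RNA counted, so that a gene whose RNA stays constant per cell falls where other RNA rises, and fewer cells of a type and less RNA per cell cannot be told apart. The 7 B cell markers all had counts in every group, and their summed level was 7235 to 8462 CPM in unstimulated cells, 6201 to 6983 with IFNα, 1322 to 1456 with CpG and 1123 to 1285 with CpG + IFNα. T cell markers summed to at most 1.82 CPM, with Cd3g and Cd8a at 0 in all samples. Myeloid markers reached 24.9 CPM in unstimulated cells and 12.6 CPM in any stimulated group, and marginal zone B cell markers were 183 to 194 CPM in unstimulated cells, 75.9 to 98.8 with IFNα and 26.5 to 56.0 in both groups with CpG. Erythroid markers varied most between replicates, from 58.9 to 345 CPM in unstimulated cells, 14.8 to 311 with IFNα and 5.04 to 70.0 with CpG or CpG + IFNα. The part of these marker levels in the results below was not tested.

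NF-κB is a family of dimeric transcription factors. Rela, Rel and Relb encode the subunits that carry a transactivation domain, whereas Nfkb1 and Nfkb2 encode the precursors p105 and p100, which hold partner subunits in the cytoplasm until they are processed to p50 and p52. IκBα, IκBβ and IκBε, the products of Nfkbia, Nfkbib and Nfkbie, bind dimers in the cytoplasm. When a receptor such as TLR9 or CD40 activates the IκB kinase (IKK), these inhibitors are degraded and the dimers enter the nucleus. IκBζ, the product of Nfkbiz, is different, as it is induced after stimulation of Toll-like receptors and acts in the nucleus on bound p50 dimers. A20, the product of Tnfaip3, edits ubiquitin chains on the signalling complexes and limits IKK activity. In B cells Rel and Rela are known for their roles in survival, growth and differentiation after activation, and several of the inhibitors are themselves NF-κB targets.

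Promoter sequences were available from RefSeq (GRCm38.p6) for 7 of the 10 genes, as windows from 250 bases before to 50 bases after each start site. A match to the κB consensus, searched on both strands, was present in windows of 4 of the 7 genes, namely Nfkb2, Rel, Nfkbia and Tnfaip3, against 6.55% of the 27025 genes with such windows. The interferon-stimulated response element pattern GAAANNGAAA, also searched on both strands, was found in 0 of the 7 and in 3.99% of all genes. The sequences below carry 1 stretch with a match before a start site, in capitals, for each of the 4 genes, because they are the element through which the family is known to act on its own members. Each is written 5′ to 3′ on the strand of its gene. A match is a description of the letters and no evidence of binding.
Rel, chr11:23770971-23771070, minus strand, upstream of the gene: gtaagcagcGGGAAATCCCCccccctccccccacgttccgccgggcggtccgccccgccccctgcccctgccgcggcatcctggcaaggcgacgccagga
Nfkbia, chr12:55492649-55492748, minus strand, upstream of the gene: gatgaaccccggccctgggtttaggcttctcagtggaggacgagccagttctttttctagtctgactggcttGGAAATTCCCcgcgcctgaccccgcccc
Tnfaip3, chr10:19015412-19015511, minus strand, within the annotated gene but outside its exons: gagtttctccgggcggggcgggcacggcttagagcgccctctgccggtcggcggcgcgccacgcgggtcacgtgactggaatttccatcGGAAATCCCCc
Nfkb2, chr19:46304689-46304718, plus strand, within the annotated gene, in the UTR of one of its transcripts: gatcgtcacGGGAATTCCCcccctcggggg
The capitals of Rel hold 2 overlapping matches, the first of them starting 92 bases before the start site. The match began 29 bases before the start site in Nfkbia, 12 bases before it in Tnfaip3 and 39 bases before it in Nfkb2, where the letters are a palindrome and where a second match lay 11 bases before the start.

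Each stimulus was first compared with unstimulated cells. A gene is called a DEG where the quasi-likelihood test of edgeR gave it an adjusted p (Benjamini-Hochberg) under 0.1 and its log2 fold change was above 1 or below −1, and a gene is said to have passed where its adjusted p alone was under 0.1. With CpG, 2 of the 10 genes were up-regulated DEGs (Nfkbib and Nfkbiz) and 2 were down-regulated DEGs (Rel and Relb), beside 20.1% and 25.5% of all genes tested. In total 8 of the 10 passed, 4 upward and 4 downward, beside 74.9% of all genes. With CpG + IFNα, 3 genes were up-regulated DEGs (Nfkb1, Nfkbib and Nfkbiz) and 2 were down-regulated (Rel and Relb), beside 20.3% and 25.6% of all genes, and 8 passed, beside 76.4%. With IFNα alone, 0 of the 10 were up-regulated DEGs and 2 were down-regulated (Nfkbiz and Tnfaip3), beside 4.56% and 4.07% of all genes. In that comparison 6 of the 10 passed, all of them downward, beside 24.3% of all genes. These 3 comparisons share the unstimulated samples. The median size of the log2 fold change of the 10 genes was 0.47 for IFNα, 0.95 for CpG and 0.88 for CpG + IFNα, beside 0.29, 0.90 and 0.91 over all genes tested.

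**Figure D1:**
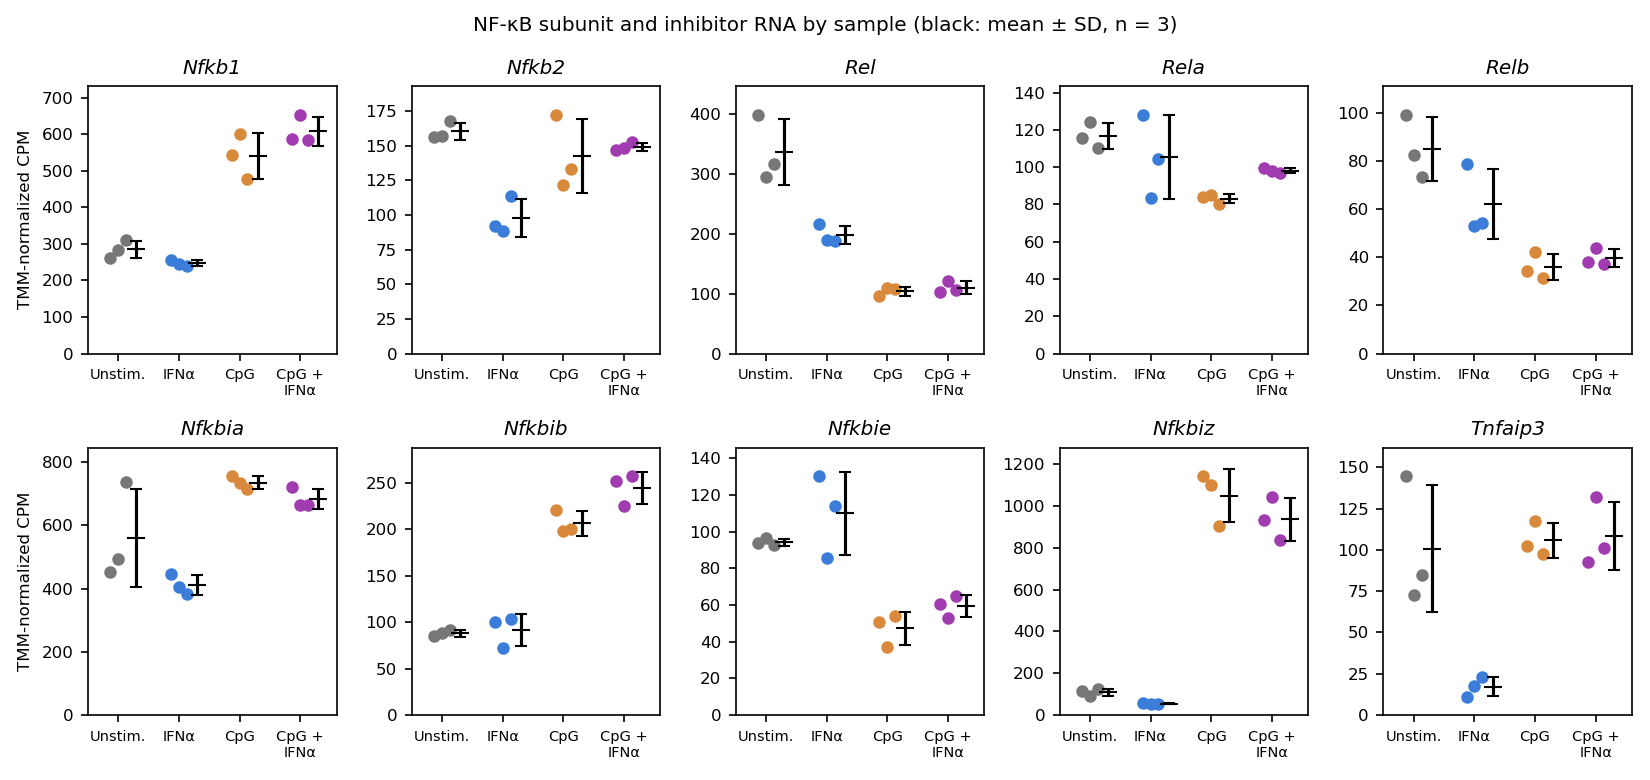
TMM-normalized CPM of each of the 10 genes (linear axes from 0, a separate scale for each gene) in the 12 samples; points are samples, and black marks are the mean ± SD of 3 samples. Nfkbiz stood at 1049 ± 128 CPM with CpG against 109 ± 17.7 unstimulated, and Tnfaip3 at 17.2 ± 5.91 CPM with IFNα alone against 101 ± 38.6 unstimulated.

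Among the subunits, Nfkb1 rose with CpG and Rel and Relb fell. Nfkb1 (GRCm38 chr3:135584655-135691547, minus strand) was at 262, 282 and 309.7 CPM in the unstimulated samples and at 543, 600.2 and 477 CPM with CpG. It reached 587, 653 and 583 CPM with CpG + IFNα and stood at 256, 246 and 239.6 CPM with IFNα alone. Both groups with CpG were therefore above both groups without it, with no overlap. The log2 fold change with CpG was 0.92 ± 0.11 (SE, edgeR adjusted p = 1.25e-08), short of a doubling, and with CpG + IFNα it was 1.09 ± 0.11 (edgeR adjusted p = 2.36e-10). Without unstimulated replicate 3 the value with CpG was 1.01, and without CpG replicate 3 it was 1.004, both past the fold threshold.

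Rel encodes c-Rel, the subunit most closely tied to the lymphoid lineages. The gene lies at chr11:23736847-23770970 on the minus strand. Its level was 399, 294 and 316 CPM in unstimulated cells, 216, 189.7 and 188 CPM with IFNα, 95.2, 109.8 and 107 CPM with CpG and 102, 122 and 106 CPM with CpG + IFNα. The levels formed 3 steps, with unstimulated cells highest, IFNα between and both CpG groups lowest, and only the groups with CpG overlapped each other. Rel fell by 1.70 ± 0.13 on the log2 scale with CpG (edgeR adjusted p = 1.36e-13), which is 3.24-fold lower. It fell by 1.61 ± 0.12 with CpG + IFNα (edgeR adjusted p = 2.09e-13) and by 0.77 ± 0.12 with IFNα alone (edgeR adjusted p = 9.46e-06).

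Relb (chr7:19606217-19629438, minus strand) encodes the main partner of p52 in the noncanonical pathway. It was counted at 99.2, 82.4 and 73.2 CPM in unstimulated cells and 78.7, 52.9 and 54.2 CPM with IFNα, ranges that overlapped. Its levels of 34.4, 42.1 and 31.5 CPM with CpG and 38.2, 43.8 and 37.0 CPM with CpG + IFNα lay below every sample without CpG. The fall was 2.39-fold with CpG (log2 fold change −1.25 ± 0.18, edgeR adjusted p = 1.52e-07) and 2.12-fold with CpG + IFNα (−1.09 ± 0.17, edgeR adjusted p = 7.08e-07). The latter was under the fold threshold without unstimulated replicate 1 (−0.95) and without a filter on low counts (−0.97). The value with IFNα alone, −0.49 ± 0.17 (edgeR adjusted p = 0.0396), did not pass without unstimulated replicate 1 (−0.35, adjusted p = 0.224), without IFNα replicate 2 (−0.38, adjusted p = 0.165) or without IFNα replicate 3 (−0.41, adjusted p = 0.153), nor in DESeq2 (adjusted p = 0.102) or at equal depth, with all samples thinned to the smallest total (adjusted p = 0.216).

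Nfkb2 encodes the precursor p100. The gene (chr19:46304320-46312385, plus strand) was at 157, 157 and 168 CPM in unstimulated cells and at 91.8, 88.8 and 114 CPM with IFNα, so that each IFNα sample was below each unstimulated one. It fell by 0.71 ± 0.14 on the log2 scale with IFNα (edgeR adjusted p = 0.00018). With CpG it was at 173, 122 and 133 CPM and with CpG + IFNα at 147, 148 and 153 CPM, and neither group passed against unstimulated cells (log2 fold changes −0.17 and −0.10, edgeR adjusted p = 0.237 and 0.466). Its value with CpG did pass without CpG replicate 1, the highest sample of that group (−0.33, adjusted p = 0.032), and at equal depth (−0.30, adjusted p = 0.0649).

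Rela (chr19:5637483-5648130, plus strand) encodes p65, the partner of p50 in the canonical dimer. It was counted at 116, 124 and 110.3 CPM in unstimulated cells, 128, 83.3 and 104.5 CPM with IFNα, 84.1, 84.8 and 80.4 CPM with CpG and 99.3, 98.0 and 96.6 CPM with CpG + IFNα. Both groups with CpG lay below all unstimulated samples, and the IFNα samples ran across the unstimulated range. The log2 fold change was −0.49 ± 0.14 with CpG (edgeR adjusted p = 0.00218) and −0.25 ± 0.13 with CpG + IFNα (edgeR adjusted p = 0.0888). The latter did not pass in DESeq2 (adjusted p = 0.138), without a filter (adjusted p = 0.534), or when any unstimulated sample, any CpG + IFNα sample or IFNα replicate 1 was left out (−0.26 to −0.19, adjusted p = 0.121 to 0.22).

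**Figure D2:**
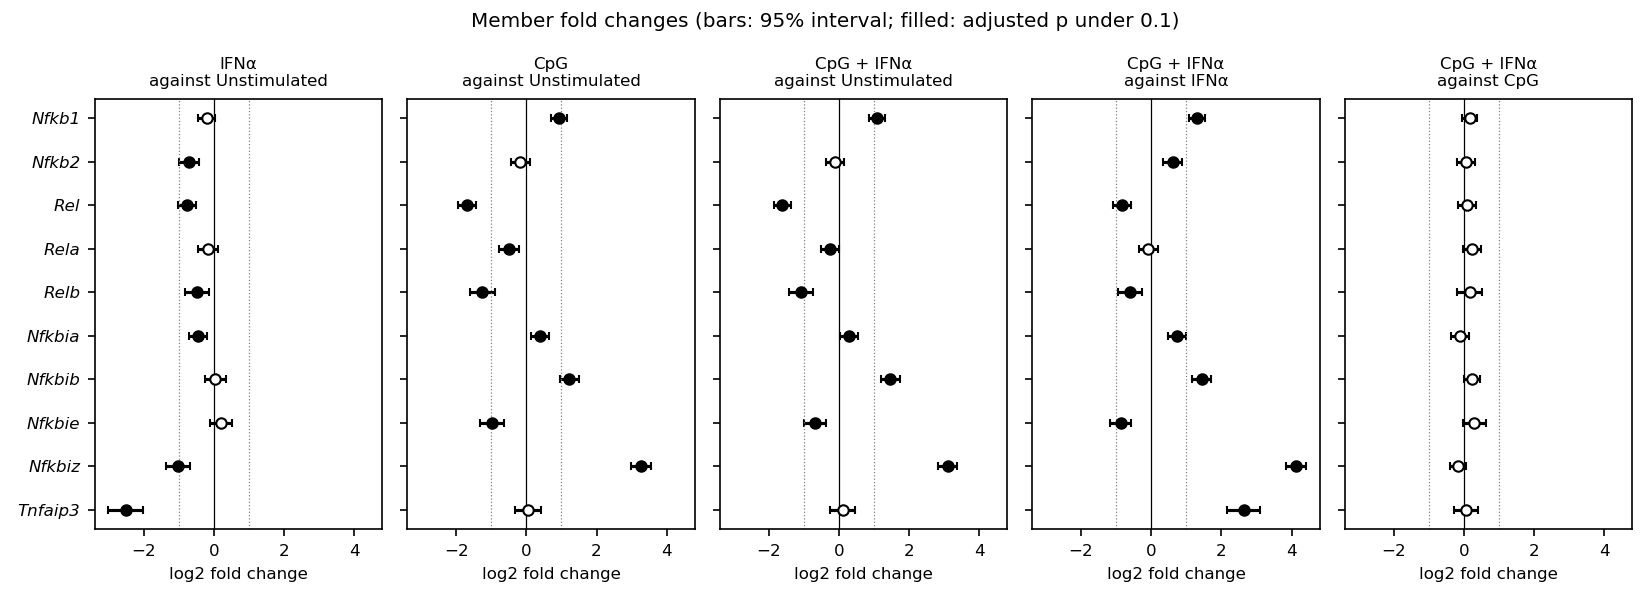
Log2 fold change of each gene in 5 comparisons; points are edgeR estimates, bars are 95% intervals, filled points had an adjusted p under 0.1, and dotted lines mark a log2 fold change of 1 in either direction. Nfkbiz is far to the right in each comparison where CpG was added (3.26, 3.10 and 4.13), Tnfaip3 is far to the left with IFNα alone (−2.52), and no point is filled for CpG + IFNα against CpG.

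The inhibitors split, with Nfkbiz and Nfkbib up and Nfkbie down after CpG. Nfkbiz (chr16:55811375-55838899, minus strand) was at 115, 88.8 and 123 CPM in unstimulated cells and 56.5, 54.1 and 50.4 CPM with IFNα. With CpG it was at 1142, 1101 and 903 CPM, and with CpG + IFNα at 930.0, 1040.2 and 835 CPM. Every sample with CpG was thus far above every sample without it, and every IFNα sample was below every unstimulated one. The level was 9.58-fold higher with CpG (log2 fold change 3.26 ± 0.14, edgeR adjusted p = 5.77e-20) and 8.56-fold higher with CpG + IFNα (3.10 ± 0.14, edgeR adjusted p = 1.33e-19). By mean level Nfkbiz moved from rank 1574 of the genes tested in unstimulated cells to rank 119 with CpG.

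With IFNα alone Nfkbiz fell by 1.03 ± 0.16 on the log2 scale (edgeR adjusted p = 1.2e-05), just past the fold threshold. It was under that threshold without unstimulated replicate 1 (−0.99), unstimulated replicate 3 (−0.91) or IFNα replicate 3 (−0.99) and at equal depth (−0.97), with adjusted p of 0.000548 or less in each.

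Nfkbib (chr7:28758251-28767512, minus strand), which encodes IκBβ, was at 84.6, 87.7 and 91.8 CPM in unstimulated cells and at 99.9, 71.8 and 103 CPM with IFNα. It was higher in each sample with CpG, at 221, 197 and 199.7 CPM, and with CpG + IFNα, at 252, 225 and 257 CPM. No sample of one CpG group fell within the range of the other. It rose 2.34-fold with CpG (log2 fold change 1.23 ± 0.13, edgeR adjusted p = 9.88e-10) and 2.77-fold with CpG + IFNα (1.47 ± 0.13, edgeR adjusted p = 8.64e-12). With IFNα alone the value was 0.04 ± 0.15 (edgeR adjusted p = 0.903, 95% interval −0.26 to 0.34).

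Nfkbie (chr17:45555703-45563169, plus strand) encodes IκBε, an inhibitor known for binding c-Rel and p65 dimers in B cells. Levels of 93.7, 96.3 and 92.7 CPM in unstimulated cells and 130.2, 85.7 and 114 CPM with IFNα overlapped. With CpG the samples were at 51.0, 37.1 and 53.9 CPM and with CpG + IFNα at 60.5, 53.1 and 64.8 CPM, all lower than any sample without CpG. The fall was 0.97 ± 0.16 on the log2 scale with CpG (edgeR adjusted p = 3.93e-06) and 0.67 ± 0.16 with CpG + IFNα (edgeR adjusted p = 0.000277). The former passed the fold threshold without CpG replicate 1 (−1.02) or CpG replicate 3 (−1.08), with RLE factors (−1.01), in DESeq2 (−1.02) and at equal depth (−1.098).

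Nfkbia (chr12:55489410-55492647, minus strand) encodes IκBα and is a textbook NF-κB target. In unstimulated cells replicate 3 stood apart, at 739 CPM beside 452 and 493 CPM in replicates 1 and 2. The other groups were tighter, at 446, 406 and 383 CPM with IFNα, 756, 733 and 716 CPM with CpG and 722, 666 and 666 CPM with CpG + IFNα. Every IFNα sample was below every sample of the other groups, while both CpG groups overlapped the unstimulated range through replicate 3. The log2 fold change was −0.45 ± 0.13 with IFNα (edgeR adjusted p = 0.0128), 0.39 ± 0.13 with CpG (edgeR adjusted p = 0.00822) and 0.28 ± 0.13 with CpG + IFNα (edgeR adjusted p = 0.047). Without unstimulated replicate 3 the value with IFNα was −0.17 (adjusted p = 0.4), and both groups with CpG were at 0.66 (CpG) and 0.60 (CpG + IFNα). Without unstimulated replicate 1 the value with CpG was 0.25 (adjusted p = 0.102). The value with CpG + IFNα lost its call without unstimulated replicate 1 (0.15, adjusted p = 0.338), unstimulated replicate 2 (0.20, adjusted p = 0.211) or CpG + IFNα replicate 1 (0.24, adjusted p = 0.132), and at equal depth (0.19, adjusted p = 0.216).

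Tnfaip3 (chr10:19000910-19015657, minus strand) was low with IFNα alone. Its level was 145, 72.7 and 84.7 CPM in unstimulated cells and 11.1, 17.6 and 22.9 CPM with IFNα, from 68 to 159 and from 11 to 30 UMI counts. With CpG it was at 103, 118 and 97.3 CPM, and with CpG + IFNα at 92.7, 132 and 101 CPM. The 3 IFNα samples were the lowest of all 12, and the other groups overlapped one another. Tnfaip3 fell by 2.52 ± 0.25 on the log2 scale with IFNα, which is 5.72-fold (edgeR adjusted p = 5.63e-10). With CpG and with CpG + IFNα the values were 0.05 ± 0.18 (edgeR adjusted p = 0.797, 95% interval −0.31 to 0.42) and 0.11 ± 0.17 (edgeR adjusted p = 0.571, 95% interval −0.24 to 0.47). Both passed without unstimulated replicate 1, the highest of its group (0.41, adjusted p = 0.0399, and 0.47, adjusted p = 0.0165).

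Immediate-early genes, which respond within minutes to handling or receptor signals, moved beside these values. The summed level of 17 such genes was 7858 to 11432 CPM in unstimulated cells, 2107 to 2249 CPM with IFNα, 764 to 802 CPM with CpG and 875 to 902 CPM with CpG + IFNα. With IFNα 15 of the 17 fell and 1 rose (median log2 fold change −2.74), beside 24.3% of all genes that passed, and with CpG 16 fell and 0 rose (−3.58), beside 74.9%. Unstimulated replicate 1, which had the highest sum of the 12 samples, was also the highest for Tnfaip3, Rel and Relb, whereas Nfkbia, Nfkbiz and Nfkb2 were highest in unstimulated cells in replicate 3. The part of this shift in the fall of Tnfaip3, Nfkbiz, Nfkbia, Rel, Relb and Nfkb2 with IFNα was not tested.

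The make-up of the subunit RNA differed between samples with and without CpG. The summed level of the 5 subunit genes was 983 ± 46.2 CPM in unstimulated cells, 711 ± 55.9 CPM after IFNα, 905 ± 68.1 CPM after CpG and 1005 ± 52.2 CPM after CpG + IFNα (mean ± SD, n = 3). Since UMI tags at the 3′ end do not grow in number with transcript length, shares of the summed counts can be given. Rel held 34.1 ± 3.97% of subunit counts in unstimulated cells, more than Nfkb1 at 29.0 ± 3.27%. With CpG, Nfkb1 held 59.5 ± 2.71% and Rel 11.5 ± 1.33%, and with CpG + IFNα the shares were 60.5 ± 0.801% and 10.9 ± 0.480%. Nfkb2 stayed between 13.9% and 16.4% in the group means. Relb went from 8.62 ± 1.06% in unstimulated cells to 3.96 ± 0.372% with CpG. Counts of Nfkb1 were 2.45 ± 0.310 times those of Rela in unstimulated cells and 6.49 ± 0.573 times with CpG, whereas those of Relb per Nfkb2 count went from 0.531 ± 0.0987 to 0.260 ± 0.0758.

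**Figure D3:**
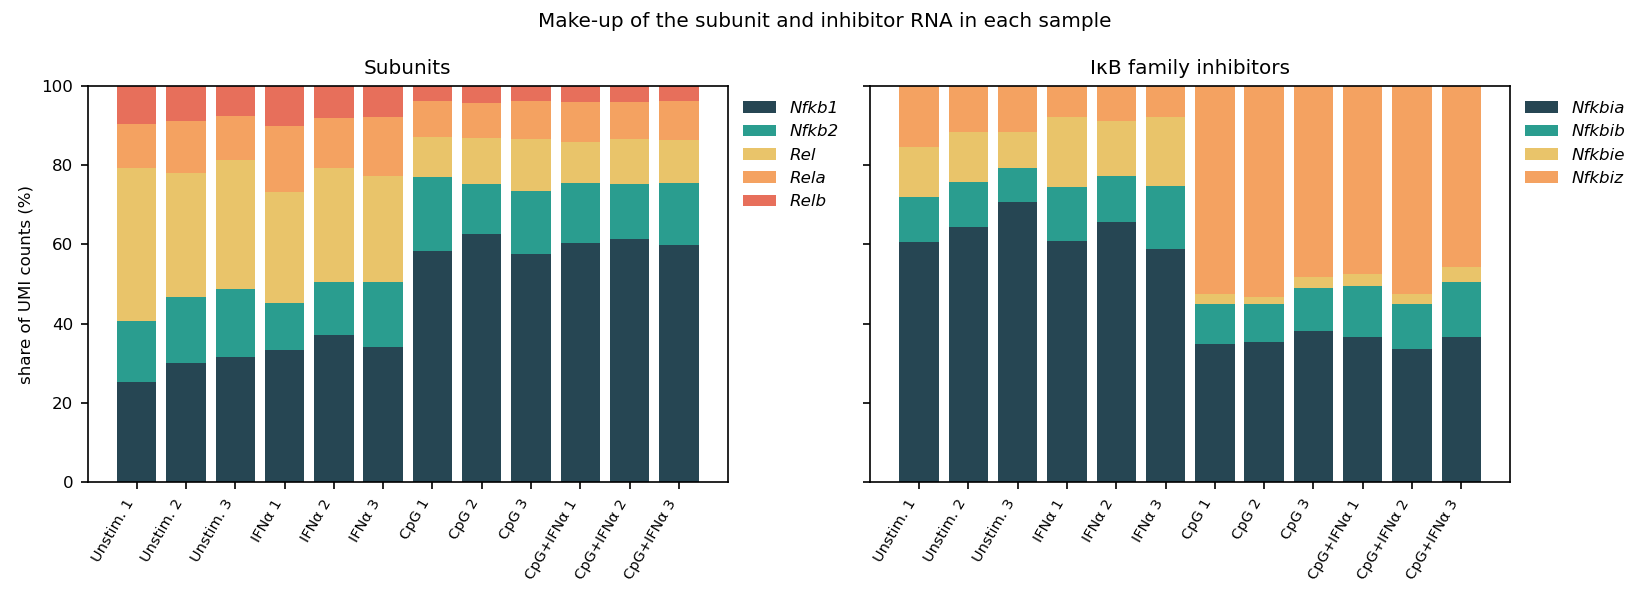
Share of UMI counts (percent, stacked to 100) held by each gene among the 5 subunit genes (left) and the 4 IκB family genes (right) in each of the 12 samples. Nfkb1 takes 57.5 to 62.6% of subunit counts in the 6 samples with CpG and at most 37.2% in the others. Nfkbiz takes 45.8 to 53.2% of the counts of the 4 genes on the right with CpG and at most 15.4% without it.

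Among the 4 followed genes of the IκB family, Nfkbia held 65.2 ± 5.03% of their summed counts in unstimulated cells and Nfkbiz 12.9 ± 2.15%. With CpG, Nfkbiz held 51.4 ± 2.73% and Nfkbia 36.2 ± 1.82%, so that the most abundant of the 4 was another. Nfkbie went from 11.3 ± 2.14% to 2.34 ± 0.543% of the counts of these 4, and Nfkbib stood at 10.5 ± 1.52% and 10.1 ± 0.560%. Other genes of the family are not part of these shares. The cytoplasmic inhibitors Nfkbia, Nfkbib and Nfkbie together had 0.759 ± 0.170 counts per subunit count in unstimulated cells, 0.862 ± 0.0128 after IFNα, 1.096 ± 0.0810 after CpG and 0.987 ± 0.0909 after CpG + IFNα. The unstimulated range of this ratio, 0.611 to 0.945, overlapped that of CpG + IFNα, 0.886 to 1.06, and not that of CpG, 1.01 to 1.17.

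The comparison the study was built for is CpG + IFNα against CpG alone. Of the 10 genes, 0 were up-regulated and 0 were down-regulated DEGs, beside 2.95% and 2.01% of all genes tested, and 0 passed, beside 15.4%. In edgeR 1 of the 10 had an unadjusted p under 0.05, and in DESeq2 0 had. That gene was Nfkbib, with a log2 fold change of 0.24 ± 0.11 (edgeR adjusted p = 0.183, 95% interval 0.01 to 0.48). These misses do not show equal levels, and the intervals bound what the difference could be. The estimates ran from −0.16 for Nfkbiz (95% interval −0.39 to 0.07) to 0.30 for Nfkbie (−0.02 to 0.63), and the bound farthest from 0 was that of Nfkbie. For Nfkb1 the interval was −0.04 to 0.39, for Nfkb2 −0.18 to 0.31, for Rel −0.17 to 0.35, for Rela −0.02 to 0.50 and for Relb −0.19 to 0.53. For Nfkbia it was −0.36 to 0.15 and for Tnfaip3 −0.28 to 0.39. The samples of both groups did not overlap for 2 genes, Rela and Nfkbib, both higher with CpG + IFNα, beside 28.2% of all genes without overlap. The median size of the log2 fold change was 0.17 for the 10 genes and 0.22 over all genes.

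With CpG + IFNα against IFNα alone, 4 genes were up-regulated DEGs (Nfkb1, Nfkbib, Nfkbiz and Tnfaip3) and 0 were down-regulated, beside 18.7% and 25.5% of all genes. In all 9 of the 10 passed, beside 75.9%, and the samples did not overlap for 9, beside 72.4%. The rise of Nfkbiz was 17.5-fold (log2 fold change 4.13 ± 0.15, edgeR adjusted p = 6.48e-22). Tnfaip3 was 6.19-fold higher (2.63 ± 0.23, edgeR adjusted p = 5.14e-12). Nfkbia and Nfkb2 rose by 0.73 and 0.61 on the log2 scale (edgeR adjusted p = 6.75e-06 and 0.000113), and Nfkb1 by 1.30 and Nfkbib by 1.43 (edgeR adjusted p = 4.3e-12 and 7.78e-12). Rel fell by 0.83, Nfkbie by 0.87 and Relb by 0.60 (edgeR adjusted p = 5.06e-07, 4.19e-06 and 0.00218). Without IFNα replicate 1 the value of Relb was −0.37 (adjusted p = 0.061). Rela alone did not pass, at −0.08 ± 0.13 (edgeR adjusted p = 0.592). Without IFNα replicate 2, Nfkbie was past the fold threshold at −1.04.

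Whether IFNα acted differently with and without CpG was tested as an interaction, the effect of IFNα in the presence of CpG minus its effect without it. The effect without CpG is measured against unstimulated cells. An effect of culture and a different effect of IFNα therefore cannot be told apart in the interaction. Of the 10 genes 5 passed, all with a higher value in the presence of CpG, and 1 of them, Tnfaip3, exceeded the fold threshold, beside 13.4% and 6.26% of all genes in either direction. The difference was 2.57 ± 0.30 for Tnfaip3 (edgeR adjusted p = 2.3e-07), 0.87 ± 0.20 for Nfkbiz (edgeR adjusted p = 0.00403) and 0.86 ± 0.18 for Rel (edgeR adjusted p = 0.00129). It was 0.78 ± 0.18 for Nfkb2 (edgeR adjusted p = 0.00482) and 0.65 ± 0.24 for Relb (edgeR adjusted p = 0.0898). In each of these the fall with IFNα in the absence of CpG was the larger part, and the effect in its presence lay between −0.16 and 0.17. The value of Relb did not pass in DESeq2 (adjusted p = 0.201), at equal depth (adjusted p = 0.469) or when any of 8 libraries was left out (both unstimulated replicates 1 and 2, IFNα replicates 2 and 3, CpG replicates 1 and 3, and CpG + IFNα replicates 1 and 2, with adjusted p = 0.106 to 0.241). For Nfkb1, Rela, Nfkbia, Nfkbib and Nfkbie the differences were 0.38, 0.41, 0.35, 0.21 and 0.10, with edgeR adjusted p of 0.14, 0.19, 0.255, 0.556 and 0.85. Of the immediate-early genes 15 of 17 passed in the same direction as the 5 genes (median 2.85), and the part of that shift in these differences was not tested.

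**Figure D4:**
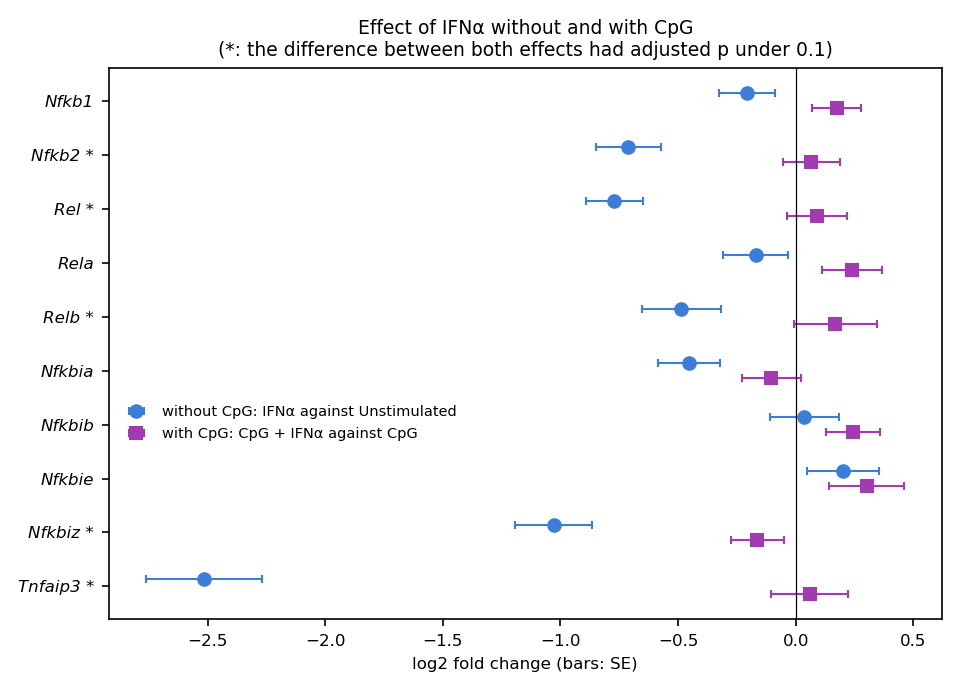
Log2 fold change of each gene with IFNα without CpG (blue circles, IFNα against unstimulated) and with CpG (purple squares, CpG + IFNα against CpG), with standard errors as bars; asterisks mark genes whose difference between both effects had an adjusted p under 0.1. The square of Tnfaip3 sits at 0.06 and its circle at −2.52, and the squares of all 10 genes lie between −0.16 and 0.30.

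The genes around these 10 were described by lists of known roles. The other IκB family genes tested, Bcl3 and Nfkbid, which encode nuclear proteins as Nfkbiz does, both fell with CpG, by 1.76 ± 0.22 and 2.72 ± 0.16 on the log2 scale (edgeR adjusted p = 2.17e-08 and 4.41e-16). Nfkbid went from 181 ± 35.3 CPM in unstimulated cells to 27.1 ± 4.65 with CpG. Neither passed in CpG + IFNα against CpG. Over all genes 74.9% passed with CpG and 15.4% in CpG + IFNα against CpG.

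Of 5 tested genes of the IKK complex and related kinases, 2 fell with CpG and 0 rose, beside 74.9% of all genes that passed. Map3k14, the kinase NIK that starts the processing of p100, fell by 3.04 ± 0.25 on the log2 scale (edgeR adjusted p = 2.02e-12), and Ikbkb, the catalytic subunit IKKβ, by 1.47 ± 0.13 (edgeR adjusted p = 5.24e-12). In CpG + IFNα against CpG, Tbk1, a kinase of the interferon pathway, rose by 0.43 ± 0.14 (edgeR adjusted p = 0.0451) and the other 4 did not pass, beside 15.4% of all genes that passed. Of the 4 genes of the TRAF and cIAP complex that degrades NIK, Traf2 rose with CpG by 0.32 and 3 fell, among them Birc3 by 1.38 and Birc2 by 1.93 (edgeR adjusted p = 0.0686, 7.49e-12 and 2.19e-09). Birc2 and Traf2, 2 of these 4 genes, rose with CpG + IFNα relative to CpG, by 0.70 ± 0.23 and 0.45 ± 0.13 (edgeR adjusted p = 0.0393 and 0.0245), beside the same 15.4% of all genes.

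Of 13 tested genes that lead from TLR9 to IKK, 3 rose and 7 fell with CpG, beside 74.9% of all genes that passed. The gene of the ubiquitin-conjugating enzyme Ube2n rose by 1.15 ± 0.23, while Unc93b1, the chaperone that brings TLR9 to endosomes, and the kinase gene Irak2 fell by 1.097 ± 0.12 and 1.18 ± 0.18 on the log2 scale (edgeR adjusted p = 6.18e-05, 1.75e-09 and 5.1e-07). In CpG + IFNα against CpG, 2 of the 13 rose and 2 fell, beside 15.4% of all genes that passed. Tlr9 itself rose by 0.68 ± 0.12 (edgeR adjusted p = 9.21e-05) and the adaptor gene Myd88 by 0.49 ± 0.18 (edgeR adjusted p = 0.0833), whereas Irak2 fell by 0.65 ± 0.19 and Irak3, which encodes an inhibitory relative of the kinase, by 0.91 ± 0.27 (edgeR adjusted p = 0.0234 and 0.024). The count of Tlr9 was made on a gene model that the authors had extended.

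Of 4 genes of the antigen receptor route, 1 rose and 3 fell with CpG, beside 74.9% of all genes that passed. Malt1, which encodes a scaffold and protease, fell (log2 fold change −2.83 ± 0.18, edgeR adjusted p = 2.34e-15), and Prkcb, which encodes a protein kinase C, rose by 0.29 ± 0.11 (edgeR adjusted p = 0.0216). In CpG + IFNα against CpG, 2 of the 4 fell and 0 rose, beside 15.4% of all genes that passed. Prkcb fell there by 0.62 ± 0.11 (edgeR adjusted p = 0.000106). Of 10 genes for partners of A20 and deubiquitinases, 2 rose and 5 fell with CpG, beside the same 74.9% of all genes. Tnip3, an A20-binding inhibitor, was the one with the largest change, from 1.60 ± 1.41 to 24.5 ± 6.23 CPM (log2 fold change 3.91 ± 0.51, edgeR adjusted p = 3.82e-08), and the deubiquitinase gene Cyld fell by 1.02 ± 0.15 (edgeR adjusted p = 4.74e-07). Tnip3 was at 5.04 ± 2.35 CPM with CpG + IFNα and fell by 2.31 ± 0.33 relative to CpG (edgeR adjusted p = 3.26e-06), the single one of the 10 to pass there, beside 15.4% of all genes. Of 6 genes that degrade IκB proteins and p105, 3 rose with CpG, among them the ubiquitin ligase components Rbx1 by 1.34 and Skp1a by 1.09 (edgeR adjusted p = 3.26e-11 and 5.21e-09), and 0 fell, again beside 74.9% of all genes. In CpG + IFNα against CpG, Map3k8, a kinase held by p105, fell by 0.50 ± 0.17 (edgeR adjusted p = 0.0497) and the other 5 did not pass, beside 15.4% of all genes that passed.

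Of 28 listed NF-κB target genes 23 were tested, and of these 13 rose and 7 fell with CpG, beside 74.9% of all genes that passed. Their median log2 fold change was 1.64, beside −0.03 over all genes. The chemokine gene Ccl3 and the survival gene Bcl2a1d rose by 4.28 ± 0.23 and 3.58 ± 0.19 (edgeR adjusted p = 6.81e-17 and 4.26e-17). Ltb, which encodes lymphotoxin β, fell from 988 ± 101 to 15.4 ± 3.78 CPM, and the costimulator gene Cd86 fell by 3.74 ± 0.26 on the log2 scale (edgeR adjusted p = 2.03e-14). With IFNα alone 3 of the 23 rose and 9 fell, beside 24.3% of all genes that passed (median −0.59, beside −0.001 over all genes). In CpG + IFNα against CpG, where none of the 10 genes passed in edgeR, 11 of the 23 targets rose and 4 fell, beside 15.4% of all genes that passed (median 0.41, beside −0.04 over all genes). Slfn2, which is also induced by interferon, rose by 1.89 ± 0.14 and the cyclin gene Ccnd2 by 1.24 ± 0.12 (edgeR adjusted p = 5.94e-13 and 8.38e-10), whereas Ltb and Cd83 fell by 0.86 ± 0.29 and 0.46 ± 0.16 (edgeR adjusted p = 0.0487 and 0.0582). In the interaction 13 of the 23 passed upward and 0 downward, beside 13.4% of all genes in either direction. The list was drawn up with earlier results of these data known.

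**Figure D5:**
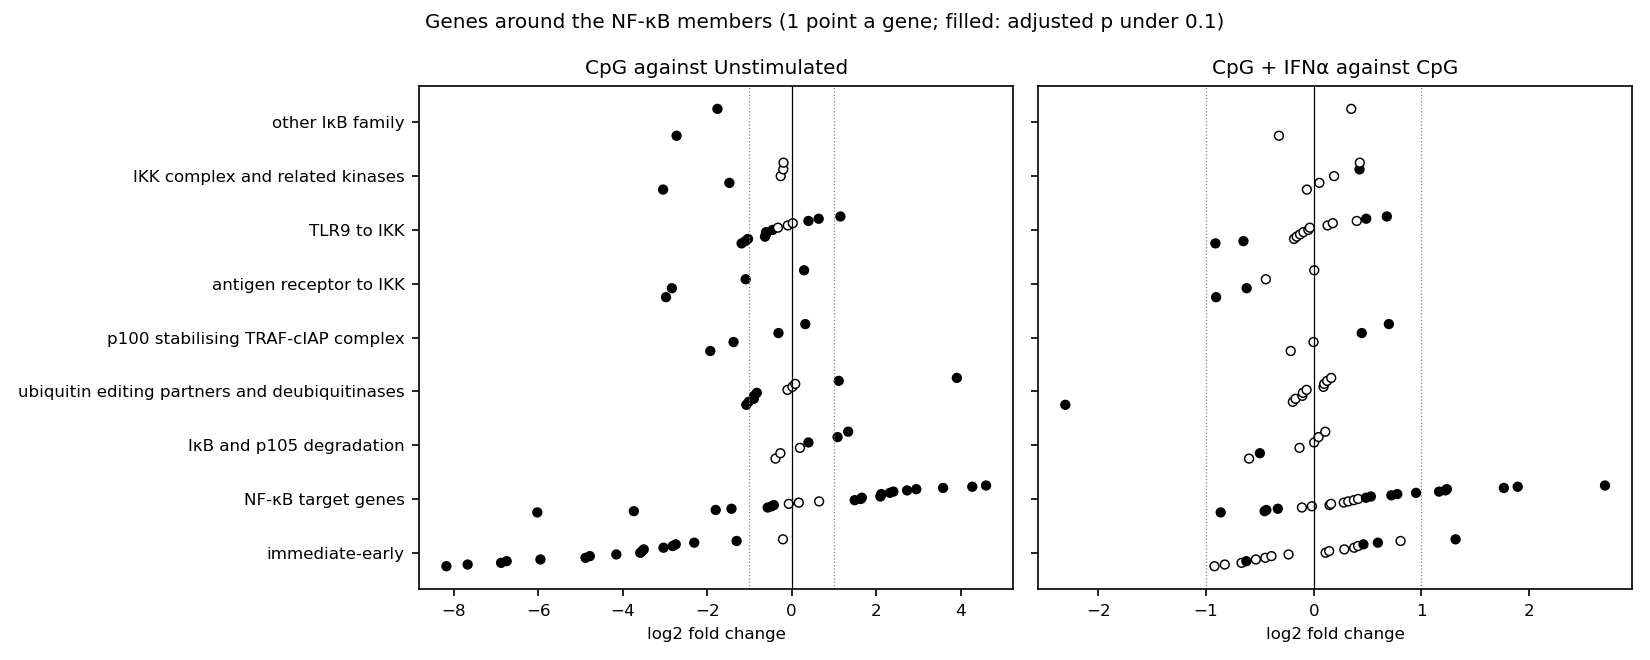
Log2 fold change of each tested gene of 9 lists around the NF-κB genes with CpG against unstimulated (left) and CpG + IFNα against CpG (right, on a narrower axis); 1 point is a gene, and filled points had an adjusted p under 0.1. On the left 16 of 17 immediate-early genes are filled and negative, and on the right 11 of 23 NF-κB target genes are filled and positive while most points of the other lists are open. Over all genes tested, 74.9% passed in the comparison on the left and 15.4% in that on the right.

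The genes whose pattern over the 12 samples was most like that of a member were found from the root mean square difference of log2 CPM, each gene centred on its own mean. For Nfkb1 they were Gm16286 (0.085), Dus1l (0.102) and Sf3b3 (0.106), beside 0.568 for the spread of Nfkb1 itself. For Rel they were Dennd3 (0.136), Foxo1 (0.151) and Tmem123 (0.174), beside 0.694. Relb was nearest to Chmp1b (0.165), Il21r (0.185) and Gna13 (0.185), beside 0.519, and Nfkbib to Rrp7a (0.089), Polr1c (0.095) and Eif4a3 (0.112), beside 0.677. The nearest to Nfkbiz were Bcl2a1d (0.215), Ctps (0.280) and Rrp1b (0.287), beside 1.88, and to Tnfaip3 Kdm6b (0.386), Ciart (0.394) and Pim3 (0.432), beside 1.15. Between members, the nearest pairs were Nfkb1 with Nfkbib (0.214), Rel with Relb (0.241) and Nfkb2 with Nfkbia (0.299). All these genes were counted in the same libraries.

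Some members share their locus with other counted genes. Gm43430 lies within Nfkb1 on the same strand, with 4 to 60 counts per sample, and Psd overlaps the 3′ end of Nfkb2 on the opposite strand, with 19 to 78 counts. Sirt2 overlaps Nfkbib on the opposite strand, with 37 to 100 counts. Whether counting used the strand is not given in the sources used here, so reads of these pairs may have been split or left out, and levels of Nfkb1, Nfkb2 and Nfkbib carry that uncertainty.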

How the data were processed

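BRB-seq libraries of sorted spleen FO B cells were made for 12 samples in 4 groups. The authors deposited UMI counts per gene, not normalized. Per the submitters' processing notes and the study's methods, they used UMI-tools 1.1.2, Trim Galore 0.6.7, HISAT2 2.2.1 on GRCm38 and featureCounts 2.0.1, and extended the Tlr9 gene model. The annotation release and the strand setting are not given in the sources used here. All 22561 gene identifiers were found in GENCODE M21, used for positions.

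Members were found by symbol. The members and the gene lists were chosen with earlier results of these data known. TMM factors and a filter by group (filterByExpr) were applied to the counts in edgeR 4.0.16 (R 4.3.3), leaving 9431 genes (2220 had no count). All 4 groups entered 1 quasi-likelihood fit, with 8 residual degrees of freedom, which gave all comparisons, with Benjamini-Hochberg adjustment over the 9431 genes. DEGs had adjusted p under 0.1 and log2 fold change over 1 in size. Alternatives were DESeq2 1.42.0, RLE or no scaling factors, no filter, only the groups compared, a replicate block, counts thinned to 922450 per sample, a log2 threshold of 2 and leaving out each sample. The script was tested on simulated counts. All 10 members are named. From each list, up to 2 genes that passed in each direction, by smallest p with CpG or in CpG + IFNα against CpG are named, with lists of 6 or fewer genes named freely, and for likeness the 3 nearest genes of each member that was a DEG. The replicate pairs within groups differed by more than sampling noise (chi-square per degree of freedom 1.90 to 6.31). No sum, share or ratio was tested. One gene that this rule names is not reported here.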

Additional observations from a re-analysis of the deposited data

Results flagged for a closer look

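For 5 of the 10 genes, beside 13.4% of all genes tested, the change with IFNα differed with and without CpG, by the interaction term of the edgeR fit (Benjamini-Hochberg adjusted). The term includes the unstimulated samples, so an effect of culture and a different effect of IFNα cannot be told apart in it. The difference in log2 fold change was 2.57 for Tnfaip3 (adjusted p = 2.3e-07), 0.87 for Nfkbiz (adjusted p = 0.00403), 0.86 for Rel (adjusted p = 0.00129), 0.78 for Nfkb2 (adjusted p = 0.00482) and 0.65 for Relb (adjusted p = 0.0898). The value of Relb did not pass in DESeq2 (adjusted p = 0.201), at equal depth (adjusted p = 0.469) or without any 1 of 8 libraries (adjusted p = 0.106 to 0.241). All 5 genes were lower with IFNα in the absence of CpG and had log2 fold changes of at most 0.17 in size in its presence. Of 17 immediate-early genes, 15 passed in the same direction, beside the same 13.4% of all genes in either direction.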

How the results depend on the processing

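Of 60 member results, 36 were past the threshold (adjusted p under 0.1). Of these, 30 kept direction and call under every alternative, 6 lost the call under at least 1, and 0 changed direction. Counts of members that were DEGs moved as follows. With a log2 threshold of 2, down-regulated DEGs were 1 for IFNα, 0 for CpG and 0 for CpG + IFNα against unstimulated cells, and up-regulated DEGs were 1 with CpG, 1 with CpG + IFNα and 2 in CpG + IFNα against IFNα. At equal depth 1 was down-regulated with IFNα, and without a filter 1 was down-regulated with CpG + IFNα (Relb lost). When each sample was left out in turn, down-regulated DEGs numbered 1 to 2 with IFNα (Nfkbiz lost without unstimulated replicate 1 or 3 or IFNα replicate 3), 1 to 2 with CpG + IFNα (Relb lost without unstimulated replicate 1) and 0 to 1 in CpG + IFNα against IFNα (Nfkbie gained without IFNα replicate 2). With CpG, down-regulated DEGs rose from 2 to 3 (Nfkbie gained) with RLE factors, in DESeq2, at equal depth and without CpG replicate 1 or 3, and up-regulated DEGs from 2 to 3 (Nfkb1 gained) without unstimulated replicate 3 or CpG replicate 3. The cause was not tested.

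Of the 24 results not past the threshold, 7 gained the call under at least 1 alternative, such as Nfkb1 with IFNα without scaling factors (−0.29, adjusted p = 0.0721), Nfkbie with IFNα without IFNα replicate 2 (0.37, adjusted p = 0.0972), and Nfkb1 and Rela in the interaction without scaling factors (adjusted p = 0.0616 and 0.0998), where 7 members then passed. Changes of sign occurred in 8 of the 24. Against unstimulated cells these were Nfkbib with IFNα (−0.047 without scaling factors, −0.069 to 0.21 leaving out samples), Tnfaip3 with CpG (−0.16 at equal depth, −0.12 to 0.41 leaving out samples) and with CpG + IFNα (−0.064 to 0.47), and Nfkb2 with CpG + IFNα (0.015 without a filter). In CpG + IFNα against CpG they were Nfkb2 (−0.028 to 0.22) and Tnfaip3 (−0.12 to 0.16), in CpG + IFNα against IFNα Rela (0.035 without a filter, −0.24 to 0.12 leaving out samples), and in the interaction Nfkbie (−0.066 to 0.25).

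Over all genes, the number passing in CpG + IFNα against CpG was 919 in DESeq2 and 845 at equal depth, against 1450, and in the interaction 758 and 640, against 1266. With IFNα it was 1518 at equal depth, against 2295. A log2 threshold of 2 left, up and down, 161 and 90 DEGs (from 430 and 384) for IFNα, 539 and 1138 (from 1898 and 2405) for CpG and 604 and 1222 (from 1916 and 2413) for CpG + IFNα against unstimulated cells, 150 and 15 (from 278 and 190) against CpG, 536 and 1162 (from 1767 and 2408) against IFNα, and 155 (from 590) in the interaction. Summed subunit and inhibitor levels without TMM factors stayed within 1 SD. The replicate block left all member counts as they were, with 6 passing with IFNα, 8 with CpG and 5 in the interaction. Same-numbered samples of different groups correlated at −0.07 to 0.20 in their deviations from the group means. Of 18 such pairs 5 were over 0.1, and 19 of 36 best matches were with the own number. All pairs over 0.1 were between stimulated groups, where same-numbered pairs ran from 0.0087 to 0.20. Samples of different number reached at most 0.0556 between any groups. The numbers may thus link the stimulated samples, but the labels do not say so, and the main fit did not pair them. Tnfaip3 rests on 11 to 30 counts per IFNα sample.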
